A study of Homo sapiens with 10 samples.

Results

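The NF-kB genes described here are 33 symbols that encode the subunits of the transcription factor NF-kB, its inhibitors and feedback regulators, the adaptors and the kinase of its alternative pathway, and known target genes. They were taken by name, and all 33 were found among the 25275 gene symbols of each deposited expression table. Messenger RNA was measured by RNA-seq in TMD8 and OCI-LY10, 2 established human cell lines of aggressive B-cell lymphoma of the activated B-cell type. In each line, cells carried a control shRNA, STAT3 shRNA 10 or STAT3 shRNA 16, and in all of them the shRNA had been induced with doxycycline (20 ng/ml, 2 days). Each shRNA has 1 library per line, and the labels name no replicate cultures. The OCI-LY10 columns are named, with 1 library for the control and 1 for each STAT3 shRNA. The 3 TMD8 columns bear no names, so they are given by position (the first, the second and the third) and assigned to no shRNA. The labels pair an shRNA against STAT3 with a control shRNA, so the question is how these messages differ once STAT3 is targeted. In each line the 3 libraries share the doxycycline exposure, controls included. The 4 STAT3 ChIP-seq samples are not analysed here.

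NF-kB proteins wait in the cytoplasm, held by inhibitors of the IkB family. Signals from the B cell receptor, Toll-like receptors or TNF-family receptors activate IkB kinase, which marks the inhibitors for destruction and lets dimers of RELA, REL and p50 (from NFKB1) enter the nucleus. In the alternative pathway the kinase NIK (MAP3K14), which TRAF3 otherwise keeps low, drives processing of the NFKB2 product p100 and releases RELB. Among the targets are the inhibitors themselves, so the pathway feeds back on itself, and lymphomas of the activated B-cell type are known for constant NF-kB activity.

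Sequences before the start sites of 5 members are shown here because these genes stand for the patterns described later, namely a feedback inhibitor that fell (NFKBIA), another that did not pass the test (TNFAIP3), a gene that rose (BIRC3), and a pair that fell to a small share of its control level (TRAF3 and CD86). Each is the stretch of 250 bases upstream of an annotated start in RefSeq on build GRCh38.p14, written 5′ to 3′ on the gene's strand. Capitals mark matches to the NF-kB (kB) consensus on either strand, and overlapping matches run together. The NFKBIA stretch is chr14:35404750-35404999 on the minus strand and holds 1 match, 81 to 72 bases before the start. The TNFAIP3 stretch is chr6:137867009-137867258 on the plus strand, with 2 matches. BIRC3 is given at chr11:102317234-102317483, plus strand, with 2 matches. TRAF3 is given at chr14:102777199-102777448, plus strand, with 1 match, 33 to 24 bases before the start. The CD86 stretch is chr3:122077534-122077783 on the plus strand, the second of 2 annotated starts, and has 2 overlapping matches. The stretch before the first CD86 start, not shown, has 0 matches.
NFKBIA: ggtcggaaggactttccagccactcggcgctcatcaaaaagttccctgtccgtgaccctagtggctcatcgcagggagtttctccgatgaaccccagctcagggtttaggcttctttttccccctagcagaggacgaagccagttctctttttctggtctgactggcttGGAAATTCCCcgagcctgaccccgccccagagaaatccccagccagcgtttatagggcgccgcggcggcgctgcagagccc
TNFAIP3: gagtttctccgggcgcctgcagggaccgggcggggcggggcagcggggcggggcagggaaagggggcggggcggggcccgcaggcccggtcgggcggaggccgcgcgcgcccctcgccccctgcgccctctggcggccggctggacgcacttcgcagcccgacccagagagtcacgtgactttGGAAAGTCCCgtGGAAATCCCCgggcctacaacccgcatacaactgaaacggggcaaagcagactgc
BIRC3: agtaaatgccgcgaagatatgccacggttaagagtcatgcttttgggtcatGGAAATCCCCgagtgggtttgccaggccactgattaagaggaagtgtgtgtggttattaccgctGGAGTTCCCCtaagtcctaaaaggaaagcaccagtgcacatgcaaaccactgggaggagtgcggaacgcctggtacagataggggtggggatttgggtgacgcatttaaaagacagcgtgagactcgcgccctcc
TRAF3: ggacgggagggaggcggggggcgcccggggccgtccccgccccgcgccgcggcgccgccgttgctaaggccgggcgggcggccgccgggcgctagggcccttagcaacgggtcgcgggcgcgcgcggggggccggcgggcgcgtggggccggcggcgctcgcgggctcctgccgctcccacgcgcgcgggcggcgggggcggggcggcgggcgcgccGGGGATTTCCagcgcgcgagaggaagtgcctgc
CD86: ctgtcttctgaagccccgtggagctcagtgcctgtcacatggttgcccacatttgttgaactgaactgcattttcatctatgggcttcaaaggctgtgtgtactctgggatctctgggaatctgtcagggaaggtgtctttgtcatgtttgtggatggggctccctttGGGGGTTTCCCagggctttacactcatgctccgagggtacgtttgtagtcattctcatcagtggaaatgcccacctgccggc

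Of the 33 members, 30 had an entry among the RefSeq promoters, with 49 upstream stretches in all. RELB, NFKBIE and IER3 had none. The kB consensus was found in 20 of the 49 stretches (40.8%), against 9.96% of all 35116 stretches of the same length. The members were listed as NF-kB genes in the first place, so this share is a description. These 20 stretches come from 17 genes. The STAT-type motif TTCNNNGAA, which reads the same on both strands, was in 8 of 49 stretches (16.3%), against 6.57% of all. It lay before TNIP2, LTA, LTB, RELA, ICAM1 and MIR155HG. Overlapping stretches of LTA and of LTB share a match, so the 8 stretches come from 6 genes, and this share too is a description. A match is a run of letters and was not tested for binding.

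STAT3, the targeted gene, stood at 16.5 FPKM (a message level scaled to gene length and library size) in the OCI-LY10 control, against 11.1 and 10.6 under shRNAs 10 and 16. In the 3 TMD8 columns it was at 120.3, 24.3 and 22.5 FPKM. The difference in OCI-LY10 passed the test, with a log2 change of -0.56 (limma, adjusted p = 0.0465), but missed it with a pseudocount of 0.1 FPKM (0.0508) and without the filter on low values (0.0688). All 8 B-cell markers checked, such as CD79A and PAX5, were above 1 FPKM in each of the 6 libraries. Their summed level was 1167 FPKM in the OCI-LY10 control, 2543 and 2812 with the shRNAs, and 1016 to 1175 in TMD8. The sum was carried by a few genes: CD79B read 225.8 FPKM with the control against 1139 and 1226, while CD22 (62.1 against 23.1 and 29.3) and SPIB (329.0 against 156.7 and 170.7) went the other way. The part of these differences in the results was not tested. None of 8 T and NK cell markers and none of 6 myeloid markers reached 1 FPKM in any library. Of 5 stromal or endothelial markers, 1 or 2 did, with a highest value of 6.05 FPKM. They differed between libraries. PECAM1 reached 1 FPKM only with the STAT3 shRNAs (5.43 and 6.05, against 0.109 in the OCI-LY10 control). COL1A1 (3.60) and DCN (1.14) did so in the OCI-LY10 control, and DCN alone in TMD8 (2.79 to 4.48). Genes listed at 0 numbered 8466 to 9581 per library, and total read counts are unknown. From the commonest ratio of low values, the OCI-LY10 control was read 1.52 times as deeply as shRNA 10, and shRNA 16 0.731 times. Only 21.9% of these ratios for the control and 29.2% for shRNA 16 lay within 1% of the commonest, so these depths are rough.

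The library labelled OCI-LY10 control was less like the other OCI-LY10 libraries than like TMD8. Over 11340 genes, Pearson's r of log2(FPKM + 1) between the control and the STAT3 shRNA libraries was 0.816 and 0.809. Against the TMD8 columns it was 0.873, 0.884 and 0.905, while the 2 STAT3 shRNA libraries had r = 0.953 with each other. Genes in a library share its depth and preparation, so these are descriptions with no p. Across the 29 NF-kB genes that were above 0, r was 0.636 with both shRNA libraries and 0.759 to 0.857 with TMD8. A comparison of STAT3 shRNA with control in OCI-LY10 therefore spans this wider difference, which cannot be told apart from STAT3 depletion, and with 1 control column it cannot be repeated without that library. Of all pairs, a STAT3 shRNA library and a TMD8 column were the least alike, with r from 0.746 to 0.768 over all genes and 0.447 to 0.510 over the members. These values do not show whether the control or the STAT3 shRNA pair is the one that stands apart. The identity of the OCI-LY10 libraries, the control among them, is therefore in doubt, and whether their labels are right was not tested. Single genes, picked after their values were seen, differ in which libraries the control resembles. MIR155HG read 17.5 FPKM in it, near the 12.7 and 13.9 of the shRNA libraries and above the 1.67 to 3.27 of TMD8. The B-cell kinase gene BLK read 4.94 FPKM in it, near the 3.97 to 6.08 of TMD8 and below the 88.0 and 93.5 of the shRNA libraries. Every value given against the OCI-LY10 control rests on the control and the STAT3 shRNA libraries as labelled.

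TNF, LTA, LTB and IER3 were listed at 0 FPKM in all 6 libraries. TNF and lymphotoxins (LTA, LTB) are the cytokines of this list, and IER3 is a stress-responsive survival gene. All 4 lie within the major histocompatibility region of chromosome 6. Of 125 protein-coding genes there, from HLA-F to HLA-DPB1, 111 were listed at 0 in all 6 libraries (88.8%), against 3233 of 18774 other protein-coding genes (17.2%). The zeros of these 4 members are therefore not read as absent expression.

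In OCI-LY10, 10 of the 29 members that could be tested fell with the STAT3 shRNAs and 3 rose, while 16 did not pass. In bulk RNA, fewer cells that express a gene and less RNA per cell cannot be told apart. The lower genes were NFKB1, NFKBIA, NFKBIZ, BCL3, TNFAIP2, TRAF3, CD83, ICAM1, CD80 and CD86, and the higher were BIRC3, TRAF2 and SOD2. A call means a Benjamini-Hochberg adjusted p below 0.05 over the 11162 genes whose OCI-LY10 mean reached 1 FPKM (limma, two-sided, on log2(FPKM + 1)). On that rule 17.4% of all tested genes were lower and 20.3% higher, against 34.5% and 10.3% of these members. The median log2 change was -0.46 over the members and 0.06 over all tested genes. Since the members were chosen with earlier results of these data known, these shares and medians are descriptions only. Because the control has 1 library, the test borrows its spread from the 2 STAT3 shRNA libraries, and p-values measure only the difference between those. Without the filter on low values 6 members stayed past the threshold (NFKB1, NFKBIZ, TNFAIP2, TRAF3, CD86 and SOD2), and the other 7 had an adjusted p from 0.0512 to 0.0985.

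**Figure D1:**
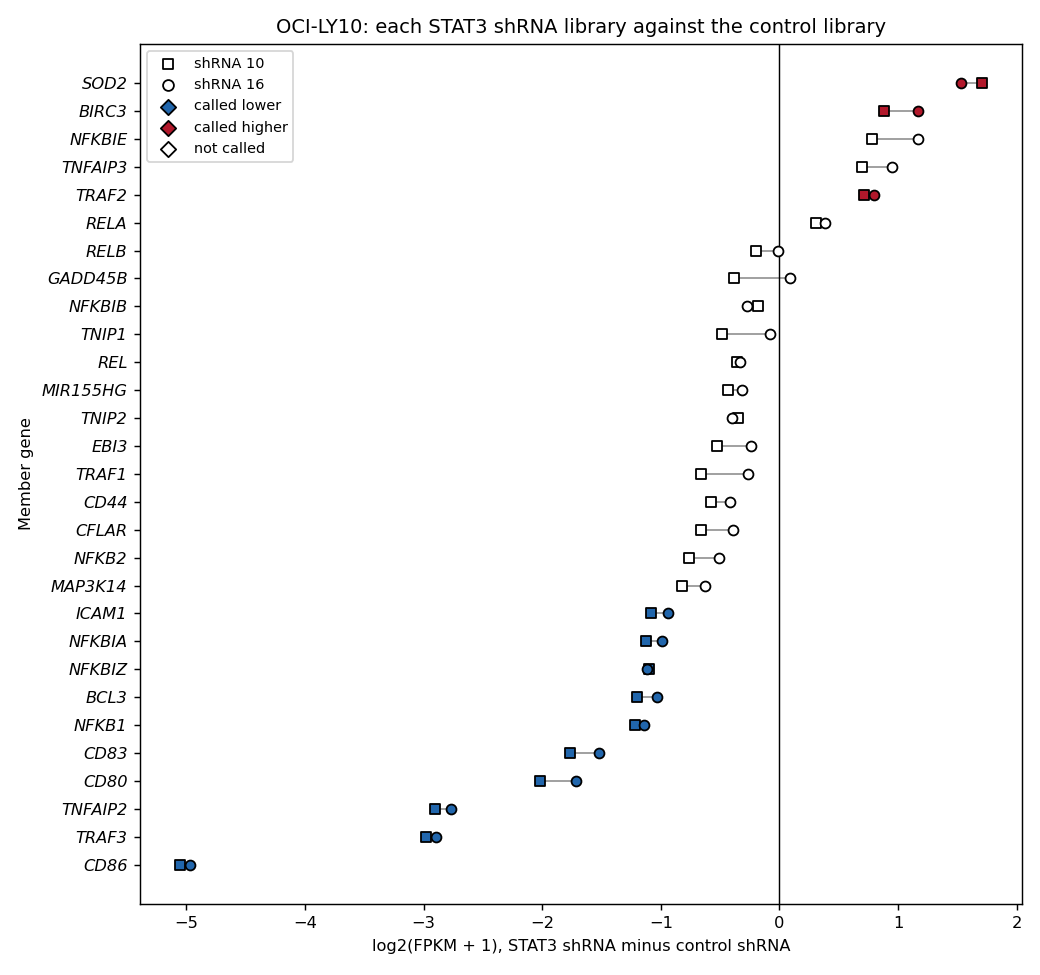
log2(FPKM + 1) with each STAT3 shRNA minus the control library in OCI-LY10, for the 29 members above 0 (squares, shRNA 10; circles, shRNA 16; filled, called by limma). CD86, TRAF3 and TNFAIP2 lie farthest to the left, SOD2 farthest to the right, and only GADD45B has its 2 points on opposite sides of 0.

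By size alone, with no test, 11 members were at least 1.5-fold lower with both shRNAs and 5 at least 1.5-fold higher on the log2(FPKM + 1) scale. Over all tested genes these shares were 17.2% and 20.1%. The rule adds MAP3K14 to the called lower genes, and NFKBIE and TNFAIP3 to the called higher ones. The 2 STAT3 shRNA libraries lay close together: the ratio of shRNA 16 to shRNA 10 ran from 0.882 (SOD2) to 1.42 (TRAF1). On the log2(FPKM + 1) scale 0 of 29 members were 1.5-fold apart, against 3.62% of all tested genes. Within that narrow range 25 of the 29 were higher with shRNA 16, against 50.1% of all tested genes, a difference that was not tested.

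**Figure D2:**
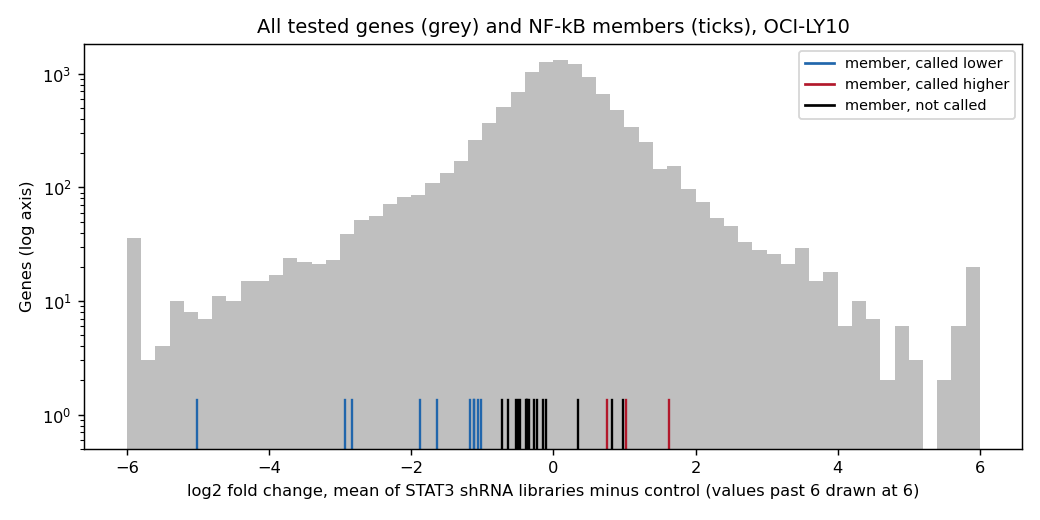
Histogram of the log2 fold change (mean of the STAT3 shRNA libraries minus control, OCI-LY10) over all 11162 tested genes, with the 29 members as ticks coloured by call; the count axis is logarithmic and values past 6 in size are drawn at 6. The members spread over much of the range of all genes, with a median of -0.46 against 0.06.

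Among the 5 subunits, only NFKB1 was called lower, while NFKB2, REL and, by little, RELB also read lower with both shRNAs but did not pass. NFKB1, the precursor of p50, read 63.6 FPKM under the control shRNA, 26.8 under shRNA 10 and 28.4 under shRNA 16, and 43.1, 44.8 and 44.2 FPKM in the TMD8 columns. With the shRNAs it averaged 27.6 FPKM ± 1.09 (SD, n = 2), lower by a log2 change of -1.18 (SE 0.0951; limma adjusted p = 0.0166). The TMD8 values lay between the control and the shRNA libraries and were the closest together of the 29 members, 1.04-fold from lowest to highest.

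NFKB2, which encodes p100 and p52, read 59.3 FPKM with the control against 34.5 and 41.4, and 56.0, 46.7 and 45.3 in TMD8. REL, the c-Rel subunit typical of B cells, read 23.0 FPKM with the control against 17.7 and 18.1, with 14.9, 23.1 and 18.01 in TMD8. RELA (p65) read 30.8 FPKM with the control against 38.3 and 40.5, with 37.8, 33.2 and 29.1 in TMD8. None of these 3 passed in OCI-LY10 (limma adjusted p = 0.0760, 0.0821 and 0.0878, in that order). RELB, the partner of p52, read 17.1 FPKM with the control against 14.8 and 16.9 (limma adjusted p = 0.573). In TMD8 it was higher than in any OCI-LY10 library, at 54.0, 45.8 and 31.8 FPKM.

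**Figure D3:**
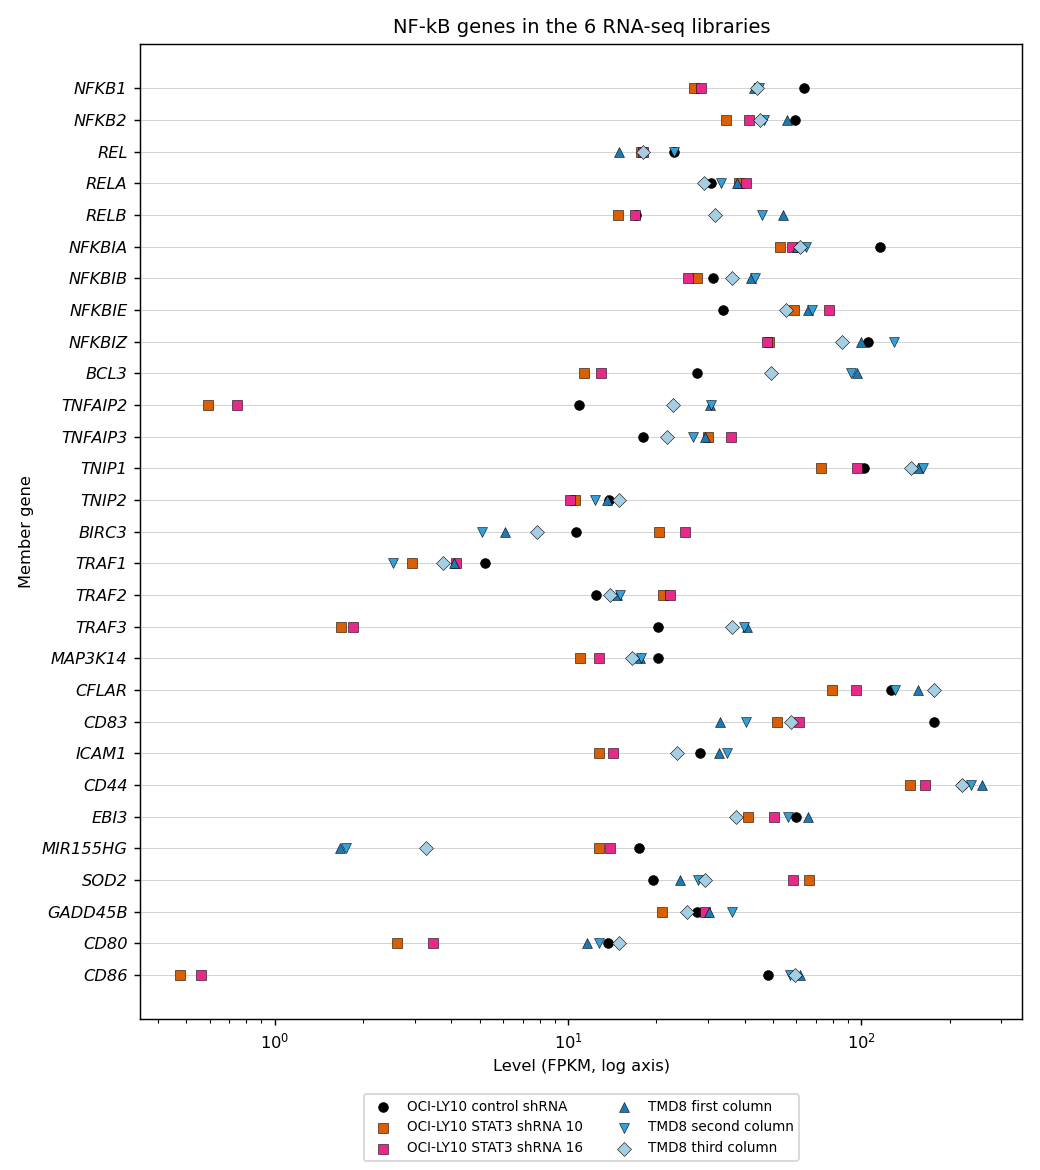
FPKM on a log axis for the 29 members above 0, in each of the 6 libraries (circle, OCI-LY10 control; squares, STAT3 shRNAs; blue symbols, TMD8 columns by position). The control lies apart from both shRNA libraries and near TMD8 for CD86 and CD80, while MIR155HG separates all TMD8 columns from all OCI-LY10 libraries; points that coincide cover one another.

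The IkB family did not move as a block. NFKBIA (IkB-alpha), the inhibitor that NF-kB itself induces and that ends a signal, read 116.1 FPKM under the control shRNA, 52.7 under shRNA 10 and 57.8 under shRNA 16. It fell, by a log2 change of -1.06 (SE 0.108; limma adjusted p = 0.0215). The TMD8 columns, at 60.2, 64.8 and 61.9 FPKM, lay just above the shRNA libraries, and the control lay above all 5 other libraries. NFKBIB (IkB-beta) read 31.3 FPKM with the control against 27.5 and 25.7, with 42.1, 43.5 and 36.3 in TMD8, and did not pass (limma adjusted p = 0.183). NFKBIE (IkB-epsilon) read 33.8 FPKM with the control against 58.9 and 77.4, with 65.8, 67.9 and 55.4 in TMD8. It also missed the threshold (limma adjusted p = 0.0651), and its control level was the lowest of the 6.

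The messages of NFKBIZ and BCL3, nuclear IkB proteins that bind p50 or p52 dimers on DNA and modulate transcription, both fell. NFKBIZ read 105.0 FPKM under the control shRNA, 48.4 under shRNA 10 and 47.8 under shRNA 16, a log2 change of -1.11 (SE 0.0837; limma adjusted p = 0.0155). In TMD8 it was at 99.7, 129.3 and 85.8 FPKM, a range that lay wholly above both shRNA libraries. BCL3 read 27.5 FPKM with the control against 11.4 and 12.9 (log2 change -1.12; limma adjusted p = 0.0249). Its TMD8 values of 96.7, 92.4 and 49.2 FPKM were all above the 3 OCI-LY10 libraries.

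Of the feedback inhibitors, which act on the ubiquitin chains that carry the signal, none passed. TNFAIP3 (A20), a ubiquitin-editing enzyme often inactivated in lymphoma, read 18.1 FPKM under the control shRNA, 29.96 under shRNA 10 and 35.8 under shRNA 16, and 29.2, 26.7 and 21.8 FPKM in TMD8. The log2 difference of 0.82 just missed the threshold (limma adjusted p = 0.0506). It passed under 1 of 6 other settings, genes with a mean of 5 FPKM or more (0.0496), and was at up to 0.109 under the rest, the highest being without the filter on low values. The A20 partner TNIP1 read 102.1 FPKM with the control against 72.9 and 96.8, with 155.9, 161.9 and 148.1 in TMD8 (limma adjusted p = 0.404). TNIP2, a relative of TNIP1, read 13.8 FPKM with the control against 10.6 and 10.2, with 13.6, 12.4 and 14.9 in TMD8 (limma adjusted p = 0.0834). For TNIP1 all 3 TMD8 columns lay above all 3 OCI-LY10 libraries.

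The TRAF adaptors and BIRC3 (cIAP2) belong to the complex that destroys NIK in resting cells, and its parts went different ways. TRAF3 fell and read 20.2 FPKM under the control shRNA, 1.69 under shRNA 10 and 1.86 under shRNA 16, the shRNA mean being 8.76% of the control. On the log2 scale it changed by -2.94 (SE 0.109; limma adjusted p = 0.00773). TMD8 had 40.9, 39.8 and 36.3 FPKM, so both shRNA libraries stood apart from the other 4. TRAF2 rose and read 12.4 FPKM with the control against 21.0 and 22.3 (log2 change 0.76; limma adjusted p = 0.0298), with 14.7, 15.0 and 13.9 in TMD8. BIRC3 rose and read 10.7 FPKM with the control against 20.5 and 25.2 (log2 change 1.02; limma adjusted p = 0.0427). TMD8 was lower than every OCI-LY10 library for BIRC3, at 6.12, 5.09 and 7.85 FPKM.

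The kinase NIK itself, MAP3K14, read 20.2 FPKM under the control shRNA, 11.0 under shRNA 10 and 12.7 under shRNA 16, and 17.5, 17.8 and 16.5 FPKM in TMD8. Its log2 difference of -0.72 missed the threshold narrowly (limma adjusted p = 0.0502) and passed it under 4 of 6 other settings (limma adjusted p from 0.0453 to 0.0996 over the 6). TRAF1, an NF-kB-induced adaptor, was low throughout and read 5.21 FPKM with the control against 2.93 and 4.16, with 4.09, 2.54 and 3.75 in TMD8. CFLAR, the inhibitor of caspase-8 activation, read 126.0 FPKM with the control against 79.1 and 95.9, with 156.0, 129.8 and 177.1 in TMD8. Neither TRAF1 (limma adjusted p = 0.217) nor CFLAR (0.110) passed.

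TNFAIP2, a TNF-induced gene, fell and read 10.9 FPKM with the control against 0.593 and 0.747 (log2 change -2.84, SE 0.113; limma adjusted p = 0.00838), the shRNA mean being 6.14% of the control. TMD8 had 30.5, 30.7 and 22.8 FPKM, all above every OCI-LY10 library. TNFAIP2 and TRAF3 are near neighbours on chromosome 14, with 4 protein-coding genes between them in RefSeq order. This was noticed after their values were seen. Among the 10 protein-coding genes on either side, 18 could be tested in OCI-LY10 and all 18 had a log2 change below 0, with 12 called lower and 0 called higher (limma). The median of those 18 was -0.78. Of all tested genes 17.4% were called lower and 20.3% higher, with a median log2 change of 0.06. RCOR1, a chromatin co-repressor gene next to TRAF3, read 26.6 FPKM under the control shRNA, 0.0254 under shRNA 10 and a listed 0 under shRNA 16, with 28.0 to 38.0 FPKM in TMD8. CDC42BPB, the only gene between TRAF3 and TNFAIP2 that was tested, went the other way (0.366 FPKM against 4.18 and 4.50, log2 change 1.97). The part of this shared position in the TRAF3 and TNFAIP2 results was not tested.

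**Figure D4:**
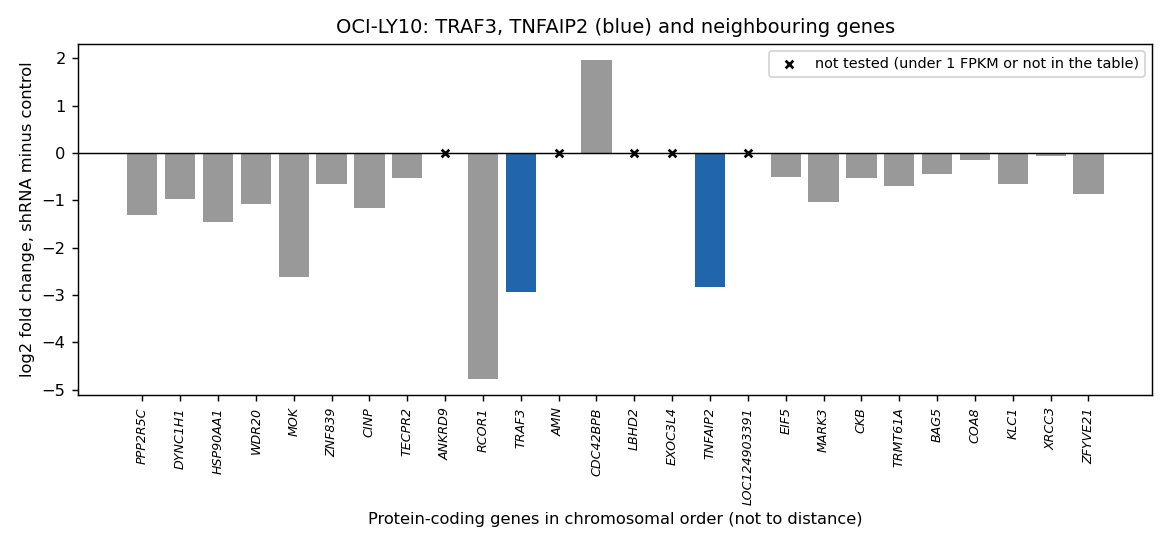
log2 fold change in OCI-LY10 (mean of STAT3 shRNA libraries minus control) for TRAF3, TNFAIP2 (blue) and the genes between and around them, in chromosomal order; crosses mark genes that were not tested. All 18 tested neighbours outside the interval lie below 0, and CDC42BPB inside it lies above 0.

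CD86 had the lowest log2 change of the 29 members. CD86, a co-stimulatory ligand of CD28 on T cells, read 47.9 FPKM under the control shRNA, 0.477 under shRNA 10 and 0.563 under shRNA 16. The shRNA mean was 1.08% of the control, a log2 change of -5.01 (SE 0.106; limma adjusted p = 0.00676). TMD8 had 61.7, 57.2 and 59.4 FPKM, so CD86 stood at 47.9 FPKM or more in 4 libraries and under 1 FPKM in the STAT3 shRNA pair. CD80, the other CD28 ligand, fell and read 13.7 FPKM with the control against 2.62 and 3.46 (log2 change -1.87; limma adjusted p = 0.0211), with 11.6, 12.7 and 14.9 in TMD8. CD83, a surface marker of activation, fell and read 177.3 FPKM with the control against 51.4 and 61.3 (log2 change -1.64; limma adjusted p = 0.0198). Its TMD8 levels of 32.9, 40.5 and 57.5 FPKM overlapped those of the shRNA libraries, and the control was the library that stood apart.

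ICAM1, the adhesion ligand of LFA-1, fell and read 28.2 FPKM with the control against 12.8 and 14.2 (log2 change -1.01; limma adjusted p = 0.0256), with 32.8, 34.8 and 23.6 in TMD8. CD44, the hyaluronan receptor, was the most abundant member in all 6 libraries. It read 219.5 FPKM with the control against 146.8 and 164.5, with 258.5, 235.7 and 220.9 in TMD8, and did not pass (limma adjusted p = 0.0718). EBI3, a cytokine subunit shared by IL-27 and IL-35, read 59.9 FPKM with the control against 41.2 and 50.4, with 65.7, 56.0 and 37.5 in TMD8 (limma adjusted p = 0.188). Its OCI-LY10 values lay within the TMD8 range.

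SOD2, the mitochondrial superoxide dismutase and a classical NF-kB target, had the highest log2 change of the members. It rose and read 19.5 FPKM with the control against 66.2 and 58.5 (log2 change 1.62, SE 0.127; limma adjusted p = 0.0161), or 3.19-fold on the mean, and TMD8 had 24.1, 27.7 and 29.3 FPKM. All 3 TMD8 columns lay nearer the control than the shRNA libraries. GADD45B, a stress-response gene, read 27.6 FPKM with the control against 20.9 and 29.3, with 30.2, 36.4 and 25.4 in TMD8, and was the only member on opposite sides of the control with the 2 shRNAs (limma adjusted p = 0.679).

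MIR155HG is the host transcript of miR-155, an oncogenic microRNA of B cells; the table measures the host and not the microRNA. Its 5p arm is shown because its host gene is the member that differed between the lines by the size rule given next, with the seed, bases 2 to 8, in capitals; it lies at chr21:25573983-25574006 on the plus strand of GRCh38.p14 (RefSeq).
hsa-miR-155-5p: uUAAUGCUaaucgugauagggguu

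MIR155HG read 17.5 FPKM under the control shRNA, 12.7 under shRNA 10 and 13.9 under shRNA 16, and 1.67, 1.76 and 3.27 FPKM in TMD8. It did not pass within OCI-LY10 (limma adjusted p = 0.0996), and all TMD8 columns lay below all OCI-LY10 libraries. The 2 tables may have been scaled separately, so lines were compared by size alone. MIR155HG was the only member at least 2-fold lower in all TMD8 columns than in all OCI-LY10 libraries on the FPKM + 1 scale, where 1.32% of 11340 genes met the rule. In the other direction 0 members met it, against 1.38% of genes. TNFAIP2 was just short of the 2-fold rule and met it at a pseudocount of 0.1 FPKM. With the OCI-LY10 control library left out, 5 members were higher in TMD8 by this rule and 2 lower, where 12.5% and 9.44% of genes met it.

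Set against TMD8, the control and the STAT3 shRNA libraries of OCI-LY10 placed the members differently. For 23 of 29 members the control lay nearer to the TMD8 median than to the mean of the 2 STAT3 shRNA libraries on the log2(FPKM + 1) scale, as it did for 59.5% of 11340 genes. The 6 exceptions were RELB, NFKBIB, BCL3, TNIP1, CD83 and MIR155HG. Of the 13 members called in OCI-LY10, 12 had all 3 TMD8 values on the control's side of both shRNA libraries, and CD83 was the exception. The share was near that of all 4206 called genes, 91.0%, so it is not a result about the NF-kB genes. It counts only the side, and for NFKBIA the TMD8 values lay far nearer the shRNA libraries than the control.

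**Figure D5:**
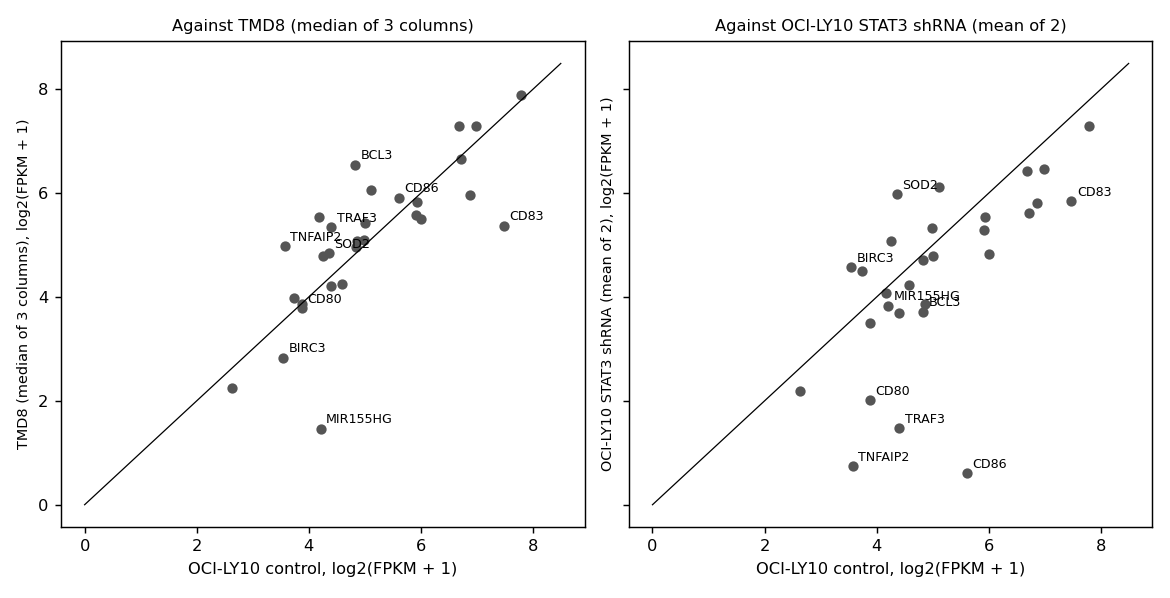
log2(FPKM + 1) of the 29 members in the OCI-LY10 control (horizontal axes) against the TMD8 median (left) and the OCI-LY10 STAT3 shRNA mean (right); the line marks equal values. CD86, TRAF3, TNFAIP2 and CD80 lie near or above the line on the left and far below it on the right, while MIR155HG is far below it only on the left.

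Within TMD8, 7 of 29 members had a highest column at least 1.5 times the lowest on the FPKM + 1 scale (REL, RELB, NFKBIZ, BCL3, CD83, EBI3 and MIR155HG), against 11.5% of 10888 genes. BCL3 had the widest ratio of FPKM, 1.97-fold between the first and the third column. With the third column left out 1 member met the rule, and with the first left out 3 did. The third column was the lowest for 17 of the 29 members, among them RELB, BCL3 and EBI3, and the highest for 7, among them CD83 and MIR155HG. Over 10888 genes it was the lowest for 35.5% and the highest for 44.8%, and its summed FPKM was the largest of the 3 columns; the part of that in the counts was not tested. STAT3 showed another pattern, with the first column apart from the other two. Since the columns have no names, no effect of an shRNA is read from them.

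The kB consensus before a start occurred among members of every kind of call in OCI-LY10. A gene was counted if any of its stretches held a match. The consensus was found for 6 of 10 that fell and 1 of 3 that rose (BIRC3, shown earlier). Of those that did not pass and have an entry, 8 of 14 had it. No share over all genes is set beside these counts, since the 9.96% given earlier is a share of stretches, so they are descriptions. The called members with none in these stretches were BCL3, TNFAIP2, ICAM1 and CD80, which fell, and TRAF2 and SOD2, which rose. That says only that the letters are not there.

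Other parts of the pathway were given by a list of 35 adaptors, kinases and ubiquitin enzymes around IkB kinase. In OCI-LY10, 5 of 35 rose (14.3%) and 3 fell (8.57%) by limma, both smaller shares than the 20.3% and 17.4% of all tested genes, and the median log2 change was 0.08. The genes named next are therefore single genes and not a change of the list. The regulatory IkB kinase subunit IKBKG (NEMO) rose and read 9.52 FPKM with the control against 20.1 and 18.6, with 9.97, 10.6 and 8.95 in TMD8. IRAK1, a kinase of Toll-like receptor signalling, rose and read 24.1 FPKM with the control against 54.4 and 50.3, with 42.6, 42.5 and 38.4 in TMD8, nearer the shRNA libraries than the control. PRKCB, a protein kinase C of B cells, rose and read 30.5 FPKM with the control against 66.9 and 72.0, with 31.3, 31.9 and 36.6 in TMD8. Among the lower genes the signalling adaptor BCL10 read 14.8 FPKM with the control against 7.76 and 8.20, with 16.6, 16.9 and 14.6 in TMD8. RIPK1, a kinase of TNF receptor signalling, read 5.43 FPKM with the control against 3.01 and 2.71, with 4.21, 4.63 and 5.21 in TMD8. The A20-binding gene TNIP3 read 2.90 FPKM with the control against 0.0640 and 0.0584, with 4.72, 2.89 and 2.62 in TMD8. The limma adjusted p of these 6 ran from 0.00804 to 0.0354. IKBKG, BCL10 and RIPK1 lost their call without the filter on low values (limma adjusted p = 0.0521, 0.0527 and 0.0770).

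A list of 36 further NF-kB targets had 30 genes tested in OCI-LY10, of which 15 fell and 3 rose (limma), or 50% and 10% against 17.4% and 20.3% of all tested genes. Its median log2 change was -0.90, and that of all tested genes 0.06. This list was chosen with earlier results of these data known, so its shares and median are descriptions only. IL10, the anti-inflammatory cytokine, fell and read 97.3 FPKM with the control against 1.39 and 2.44, with 87.1, 72.6 and 89.0 in TMD8. CXCL10, a T-cell chemokine, read 20.0 FPKM with the control, a listed 0 with both shRNAs, and 33.8, 24.3 and 21.9 in TMD8. CCL4, another chemokine, fell and read 56.6 FPKM with the control against 1.93 and 1.81, with 7.47, 5.63 and 6.27 in TMD8; it has near-identical copies and is uncertain. The 3 that rose were PIM1, CCND2 and STAT5A. PIM1, a survival kinase, read 54.6 FPKM with the control against 320.6 and 351.7, and its TMD8 levels of 136.8, 140.3 and 96.8 lay between those of the control and the shRNA libraries. CCND2 (cyclin D2) read 51.8 FPKM with the control against 125.6 and 113.9, with 41.7, 48.0 and 46.1 in TMD8. STAT5A read 2.69 FPKM with the control against 6.11 and 6.32, with 9.91, 10.8 and 5.07 in TMD8. The limma adjusted p of these 6 ran from 0.00676 to 0.0220.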

How the data were processed

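RNA-seq of 6 libraries was used. FPKM values were deposited by the authors, 1 table per line. TopHat, Bowtie2 and the build hg19 are named, without roles, per the submitters' processing notes. The FPKM tool, its annotation, strand use and any scaling between libraries are, in the sources used here, not given. Rows of the same symbol were summed. OCI-LY10 columns were matched to samples by name; the TMD8 table has no header and its columns went to the 3 TMD8 samples as a set. In OCI-LY10 the 2 STAT3 shRNA libraries were set against 1 control with limma 3.58.1 in R 4.3.3 (log2(FPKM + 1), mean of at least 1 FPKM, empirical Bayes with trend, two-sided, Benjamini-Hochberg), with 1 residual degree of freedom. Fold changes on that scale understate low genes. The fit was also run on simulated data with the same spread in every library, which cannot speak to the unknown spread of the single control. Named were STAT3, all members and, per further list, the 3 highest and 3 lowest called changes. The members and lists were chosen with earlier results of these data known. FPKM carries no total count, so no counting interval is given; low-value ratios gave no usable relative depth in TMD8. The 4 ChIP-seq samples are not analysed here. Alternatives covered pseudocount, filter, scaling and left-out libraries.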

Additional observations from a re-analysis of the deposited data

How the results depend on the processing

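No result that was called reversed under any setting tried. Without the filter on low values (18098 genes tested) the members called by limma came to 1 higher and 5 lower instead of 3 and 10, and the 35 upstream genes to 3 higher and 1 lower instead of 5 and 3. The adjusted p of the members that lost their call there lay between 0.0512 (NFKBIA) and 0.0985 (BIRC3). With a mean of at least 5 FPKM the upstream list had 1 lower. Leaving out either STAT3 shRNA library gave 11 to 14 members at least 1.5-fold lower and 5 higher. In TMD8, a threshold of 2 times left 0 of the 7 members with a wide spread, and leaving out each column in turn gave 1 (without the third column) to 5. TMD8 lay above OCI-LY10 for 1 member at a pseudocount of 0.1 FPKM, 4 at a 1.5-fold threshold and 5 without the control library (0 otherwise), and below it for 2 without the control (1 otherwise). With settings chosen after seeing the data, the control lay nearer the TMD8 median than the STAT3 shRNA mean for 22 to 23 of 29 members. Median-of-ratios scaling moved the median of all genes from 0.06 to -0.01. FPKM hides depth, so precision of low values is unknown.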

Other observations

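The makeup of NF-kB subunit messages differed between the lines more in RELB than in the total. The summed level of NFKB1, NFKB2, REL, RELA and RELB, in FPKM and so per length, was 193.8 in the OCI-LY10 control, 132.1 and 145.2 with the STAT3 shRNAs, and 205.8, 193.6 and 168.3 in the TMD8 columns. RELB made up 8.82%, 11.2% and 11.7% of that sum in OCI-LY10 and 26.2%, 23.7% and 18.9% in TMD8. NFKB1 made up 32.8% in the OCI-LY10 control, 20.3% and 19.5% with the shRNAs, and 21.0%, 23.1% and 26.3% in TMD8. By its NFKB1 share the control was therefore the highest of the 6 libraries, and by its RELB share the lowest. The order of the most abundant members also differed: CD83 was second after CD44 in the OCI-LY10 control, while CFLAR or TNIP1 was second in the other 5 libraries. These values are descriptions with no test.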
